A study of Rattus norvegicus with 6 samples.

Results

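Genes that drive cells through division were followed in the rat hippocampus after lasting loss of carotid blood flow. The 40 genes were chosen by name and cover the passage from G1 to cytokinesis. All 40 were on the array, out of 17339 genes that could be named, and they were read by 51 of its 30367 probes. Total RNA of the hippocampus of male Wistar rats (the labels write the strain both as Wistar and as Wister) was pooled and measured on 6 one-colour Agilent expression arrays, 1 for each group. The groups were a control, 12 weeks old per the labels, and animals at 5 times (days 21, 35, 45, 55 and 70) following BCCAo, the tight ligation of both common carotid arteries under isoflurane, labelled 13, 14, 15, 16 and 17 weeks old. These ages do not match the days between the time points, and how many rats made up a pool, or whether controls were sham-operated, the labels do not say. With 1 array per group there is no spread between animals, so every difference below describes 1 pool against another, without a p-value.

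In cell division, cyclins of the D and E type with the kinases Cdk4 and Cdk2 bring a cell into S phase, where the licensing helicase of the Mcm proteins opens DNA for copying. Cyclins A and B with Cdk1, the Polo and Aurora kinases, the spindle checkpoint and the anaphase-promoting complex then carry it through mitosis. In the adult hippocampus dividing cells are rare: progenitors in the dentate gyrus, oligodendrocyte precursors and, after injury, microglia. As textbook background, the promoters of S phase genes are bound by E2F factors, whereas those of G2 and mitosis genes carry CCAAT boxes, bound by NF-Y, and the element called CHR, bound by the DREAM and B-Myb complexes.

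The members differ in these elements, and 5 promoters are printed as examples. Cdk1, Top2a and Prc1 are mitotic genes above the control at day 21, and Cdc20 is a mitotic gene below it. Mcm5 is an S phase gene. A link between these elements and the expression values was not tested. Each line gives the 250 bases before the annotated start, 5′ to 3′ on the gene's strand, from RefSeq on build GRCr8. Capitals mark CCAAT (or ATTGG on the other strand), the CHR letters TTTGAA (or TTCAAA) and the E2F letters TTTCGCGC, TTTGGCGC, TTTCCCGC or TTTGCCGC on either strand. The windows are chr20:19265043-19265292 (plus strand), chr1:143659231-143659480 (plus), chr10:84473094-84473343 (minus), chr5:137255800-137256049 (minus) and chr19:13488563-13488812 (plus).
Cdk1: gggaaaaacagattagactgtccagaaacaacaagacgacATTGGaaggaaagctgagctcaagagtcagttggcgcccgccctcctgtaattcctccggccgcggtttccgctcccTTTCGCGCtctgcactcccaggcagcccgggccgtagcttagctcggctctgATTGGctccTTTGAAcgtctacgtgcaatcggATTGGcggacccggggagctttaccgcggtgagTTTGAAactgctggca
Prc1: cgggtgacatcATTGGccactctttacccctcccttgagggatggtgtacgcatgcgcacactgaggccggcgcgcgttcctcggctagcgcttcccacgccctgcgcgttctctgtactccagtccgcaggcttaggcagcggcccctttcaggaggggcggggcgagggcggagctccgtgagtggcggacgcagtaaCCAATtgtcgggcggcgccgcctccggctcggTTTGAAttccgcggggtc
Top2a: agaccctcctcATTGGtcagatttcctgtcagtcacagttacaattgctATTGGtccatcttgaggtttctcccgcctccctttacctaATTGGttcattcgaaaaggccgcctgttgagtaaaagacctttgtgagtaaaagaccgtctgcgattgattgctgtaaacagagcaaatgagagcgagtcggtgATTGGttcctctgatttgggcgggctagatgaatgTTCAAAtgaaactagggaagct
Cdc20: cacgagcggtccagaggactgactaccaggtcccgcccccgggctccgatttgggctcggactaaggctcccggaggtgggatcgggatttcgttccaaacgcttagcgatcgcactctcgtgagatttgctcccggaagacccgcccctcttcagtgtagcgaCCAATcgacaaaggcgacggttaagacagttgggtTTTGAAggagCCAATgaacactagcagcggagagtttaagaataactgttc
Mcm5: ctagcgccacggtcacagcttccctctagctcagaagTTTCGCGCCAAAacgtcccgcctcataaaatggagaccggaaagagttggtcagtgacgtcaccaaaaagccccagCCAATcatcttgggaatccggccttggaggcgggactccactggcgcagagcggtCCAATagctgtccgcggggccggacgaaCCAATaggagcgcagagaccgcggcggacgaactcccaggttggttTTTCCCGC

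Cdk1 holds all 3 kinds of element, and Cdc20 has the same pair of CCAAT and CHR as Prc1 and Top2a although its values went another way. In Mcm5 the first run of capitals holds TTTCGCGC on the printed strand and TTTGGCGC on the other, which overlap by 4 bases. Of the 40 members, 31 had a promoter in the RefSeq table, searched over 300 bases, the 250 before the start and the 50 after it. Ccnd1, Ccnd2, Cdc6, Mcm4, Rrm2, Ccna2, Aurkb, Ube2c and Tpx2 had none there. A CCAAT box was found in 23 of the 31, against 37.5% of all 33469 promoters, and a CHR in 12, against 18.3%. The E2F letters were found in 7, against 2.14%: Mcm2, Mcm3, Mcm5, Mcm6, Mcm7, Tyms and Cdk1. CCAAT and CHR occurred together in 10 of the 18 promoters of G2 and mitosis members and in none of the 13 of G1 and S phase members, against 7.41% of all promoters. The CCAAT box by itself did not separate them. It was in 15 of the 18 and in 8 of the 13, and in 5 of the 6 of licensing and replication. E2F letters were present in 5 of 6 promoters of the licensing and replication members and in 1 of the 18 of G2 and mitosis. These are matches of letters, not bound sites.

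Levels are given as normalised intensity, the background-subtracted signal after all arrays were scaled to a common 75th percentile of 1339 intensity units, and differences as log2 of a day minus the control unless a fold is named. On these arrays 16 members fell in the dimmest group when all genes were ranked by mean signal and cut into 3 groups of one size, 18 in the middle group and 6 in the brightest. All 6 arrays gave 29 members well above background. On 1 to 5 arrays 9 more were, and the cyclin gene Ccnb2 and the checkpoint kinase gene Bub1b were on none, so neither enters any comparison. No member was saturated. Cdk1, Cdk2, Mki67, Kif11, Nusap1 and Prc1 were each read from 10 spots, the others from 1 spot. If a gene failed that limit on one array of a pair, the higher of its own signal and the lowest signal passing the limit on that array stood in, and the fold is written as at least so much.

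At day 21 the cell cycle genes stood above the control, and those of mitosis more than those of G1. Of 36 members compared, 27 were above the control, where 39.7% of 13832 genes were. Mcm3, Cdk1 and Cenpf were at least 2-fold higher, 3 of 36, beside 3.62% of all genes, and no member was at least 2-fold lower, beside 1.85%. The median of the members was 0.25 and that of all genes -0.07. The 20 compared members of G2 and mitosis had a median of 0.52, and the 16 of G1, S phase and nucleotide supply one of 0.18. All 6 members of the brightest group of genes belong to G1 and S phase, so phase and signal level are mixed in this contrast. The part of signal level in it was not tested. Cenpf and Kif11 passed the background limit on the day 21 array alone, so in this comparison they could only count as above. Over members well above background on all 6 arrays, the median was 0.275 in G2 and mitosis and 0.222 for the whole set. Over all compared members these medians were 0.52 and 0.25, so the lead of G2 and mitosis was smaller under this filter. Under 7 other ways of processing the arrays the members' median stayed between 0.20 and 0.26 and that of the G2 and mitosis members between 0.27 and 0.63. With normexp background correction, or with the values the authors deposited, no member reached 2-fold at day 21. The normexp setting adds an offset of 50 units, which by itself narrows log2 differences, most of all those of dim genes. Over all ways of processing, Mcm3 ran from 0.85 to 1.14, Cdk1 from 0.73 to 1.11 and Cenpf from 0.21 to 3.07. At a threshold of 1.5-fold, 10 members were higher, beside 7.76% of all genes, and 8 of the 10 belonged to G2 and mitosis.

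**Figure D1:**
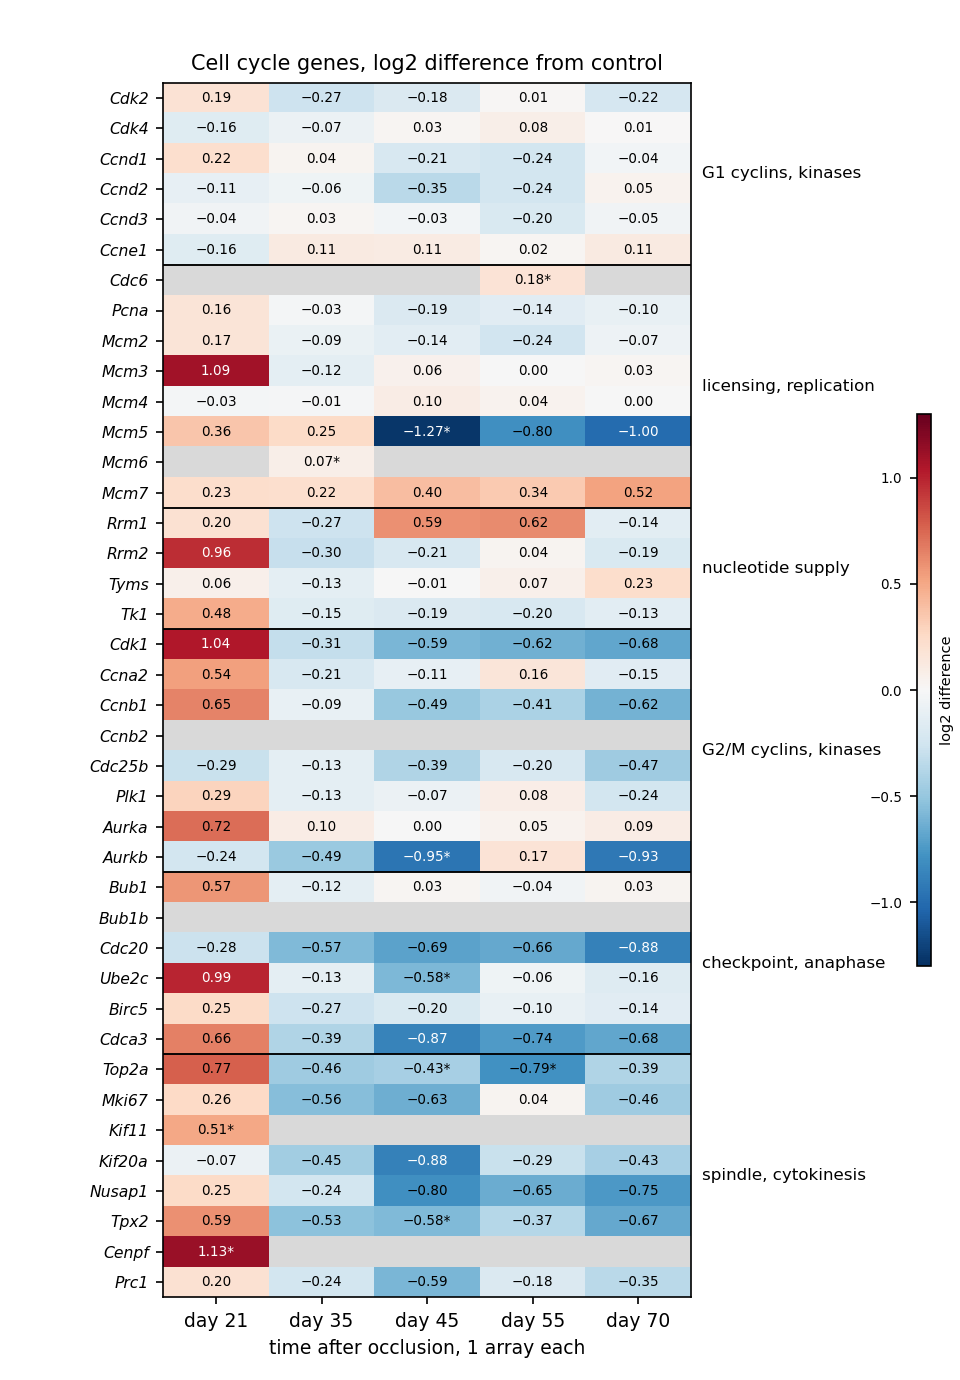
Log2 difference of each of the 40 members (rows, ordered by role) from the control array at 5 times after occlusion (columns, 1 array each), in red above and blue below the control. An asterisk marks a bound and grey a gene not well above background on either array. The day 21 column is mostly red, with Cenpf (1.13, a bound), Mcm3 (1.09) and Cdk1 (1.04) highest, and the lower rows of the later columns are mostly blue.

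The cyclins and kinases of G1 stayed near the control. Ccnd2, the D cyclin with the highest signal, stood at 1994 in the control and at 1848, 1914, 1568, 1684 and 2065 on days 21, 35, 45, 55 and 70. Cdk4, the partner kinase of D cyclins, stood at 765 in the control and at 684, 727, 780, 809 and 768. Ccne1, the E cyclin, stood at 880 and at 788, 952, 948, 894 and 952. Of the 6 genes of this group only Ccnd1 (0.22) and Cdk2 (0.19), the kinase of E and A cyclins, were above the control at day 21, and the group's median was -0.08. The farthest from the control on any day was Ccnd2 at -0.35 on day 45. The error that the scanner software gives for a spot amounts to about 0.20 log2 units for the difference of a bright gene between arrays, as for Cdk4 (0.2044), and leaves out the spread between animals.

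Among the replication genes, the licensing subunit gene Mcm3 stood out at day 21. Mcm3 had 161 in the control, 342 on day 21 and 148, 168, 161 and 164 on days 35, 45, 55 and 70. The other 5 arrays lay close together, and day 21 was 2.13-fold above the control, a log2 difference of 1.09 with a spot error of 0.21. Its probe lies at chr9:19536947-19537006 of build rn4 and is a single spot. The other subunits of the same 6-part ring did not share this. Mcm2 was higher by 0.17, Mcm5 by 0.36 and Mcm7 by 0.23, Mcm4 stood at -0.03, and Mcm6 was not well above background on either array. At its brighter probe Mcm4 was even across the arrays, with 1082 in the control and 1060, 1074, 1158, 1114 and 1078 after it. Its other, dimmer probe was not, with 37.4 in the control and 26.2 on day 21 (-0.51). That probe was also lower on day 45, by a bound of -0.54, and stood at 0.15, 0.09 and -0.01 on days 35, 55 and 70. Pcna, the sliding clamp of the DNA polymerases, had 1342 in the control and 1503, 1317, 1176, 1215 and 1253, highest on day 21 by 0.16. Cdc6, the loader of the helicase, was well above background on the day 55 array alone.

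All 4 genes of nucleotide supply were above the control at day 21, with a median of 0.34. Rrm2, the regulated subunit of ribonucleotide reductase, had 262 in the control, 511 on day 21 and 213, 226, 269 and 229 later, a 1.95-fold difference just below the 2-fold threshold. Tk1, the S phase thymidine kinase, had 201 in the control, 280 on day 21 and 181, 176, 174 and 183 later (0.48). Tyms, which makes thymidylate, was nearly level, with 55.1 in the control and 57.6, 50.3, 54.8, 57.8 and 64.6 after it. Rrm1, the large reductase subunit, differed by 0.20 on day 21 and did not follow Rrm2 later, being above the control on days 45 (0.59) and 55 (0.62).

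Cdk1, the kinase that starts mitosis, was high on day 21 and below the control on every later array. It stood at 94.8 in the control, 195 on day 21, and 76.3, 63.0, 61.5 and 59.3 on days 35, 45, 55 and 70. The spots of its probe (chr20:20043755-20043814, build rn4) spanned 86.0 to 105 units in the control (10 spots) and 184 to 203 on day 21 (9 spots), and the SD between spots was 0.11 and 0.05 log2 units. The day 21 array was 2.06-fold above the control and the others were below it, by up to 0.68 on day 70. The highest spot on day 35 was at 85.9 and that on day 70 at 64.0, below the lowest control spot; spots of one array show only technical spread.

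**Figure D2:**
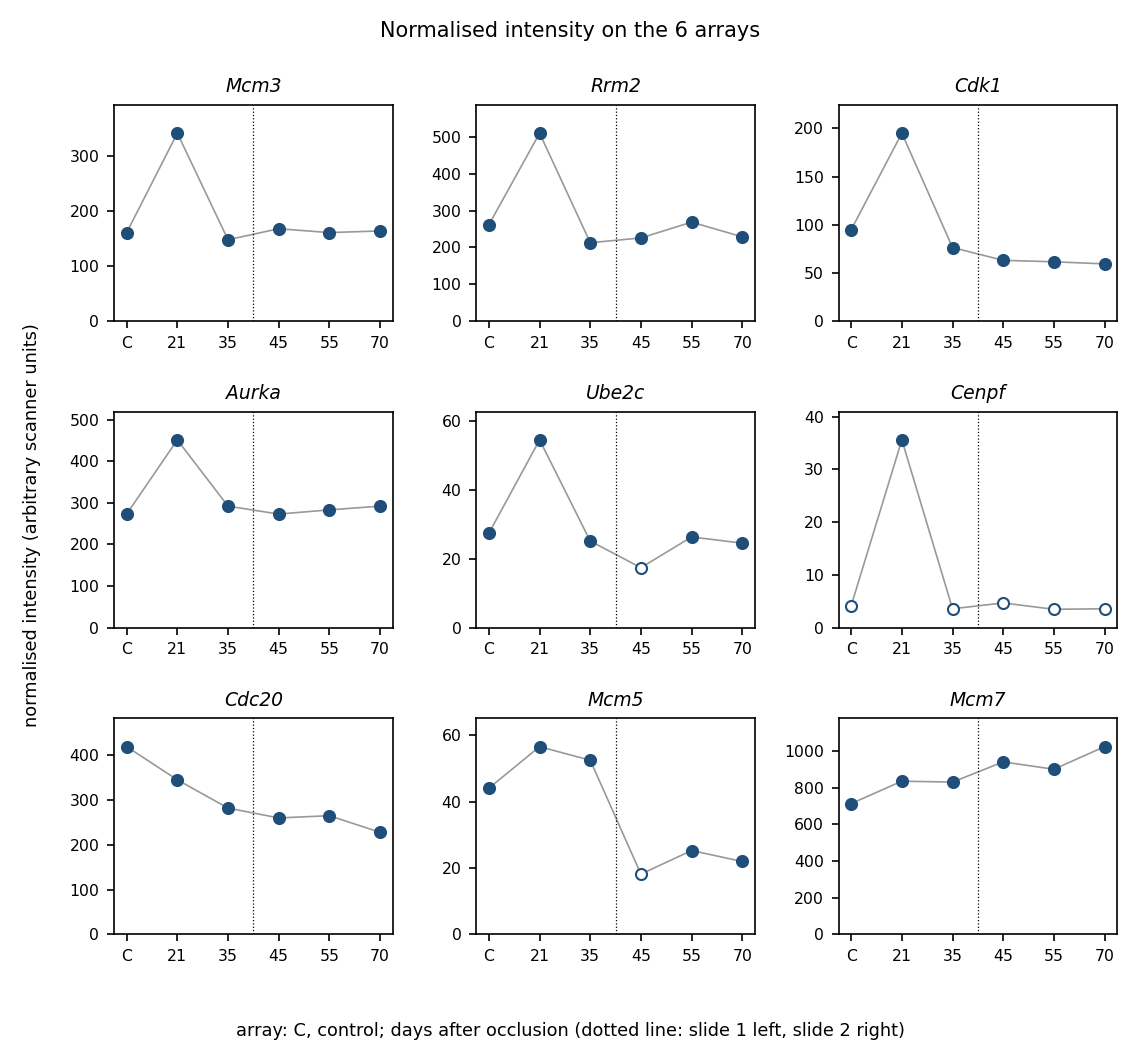
Normalised intensity (y axis, from 0) of 9 members on the 6 arrays (x axis, C for control, then days after occlusion), 1 point per array, open where the gene was not well above background. The dotted line separates the arrays of slide 1 from those of slide 2. Mcm3, Rrm2, Cdk1, Aurka, Ube2c and Cenpf peak on day 21, Cdc20 is highest in the control, Mcm5 is low on slide 2 and Mcm7 is lowest in the control.

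Partners of Cdk1 were above the control on day 21 by less. The A cyclin gene Ccna2 was higher by 0.54, and by 0.71 at its other probe, and the B cyclin gene Ccnb1 by 0.65. Aurka, the Aurora kinase of spindle poles, had 273 in the control, 451 on day 21 and 292, 273, 283 and 292 later (0.72). Plk1, the Polo kinase, had 240 in the control, 293 on day 21 and 219, 227, 254 and 202 later (0.29). Not every mitotic regulator was above the control: Aurkb, the Aurora kinase of the chromosomal passenger complex, stood at -0.24, and Cdc25b, a phosphatase that activates Cdk1, at -0.29. Cdc25b had 526 in the control and 432, 480, 401, 457 and 381 afterwards, so the control array was its highest. Its other probe showed the same order of control and day 21 with a larger gap, 202 against 69.9, or -1.53.

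Of the 5 compared genes of the spindle checkpoint and of anaphase, 4 were above the control at day 21. Ube2c, the ubiquitin-conjugating enzyme of the anaphase-promoting complex, was higher by 0.99, Cdca3 by 0.66, and the checkpoint kinase gene Bub1 by 0.57. Bub1 had 50.2 in the control, 74.6 on day 21 and 46.1, 51.1, 48.8 and 51.4 later. Birc5, which encodes survivin of the passenger complex, had 128 in the control, 153 on day 21 and 107, 112, 120 and 116 later (0.25). Cdc20, the activator of the anaphase-promoting complex, went the other way. It had 419 in the control, 345 on day 21 and 282, 260, 265 and 228 on days 35, 45, 55 and 70, so no array after occlusion reached the control.

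Of the 8 genes of the spindle, chromosomes and cytokinesis, 7 were above the control at day 21. Cenpf, a kinetochore gene, was well above background on the day 21 array alone, at 35.6 units, and was at least 2.18-fold higher than the control. That call rests on 1 spot (chr13:105929894-105929953, build rn4), and the other probe of Cenpf was not well above background on any array. Kif11, the motor that separates spindle poles, was likewise well above background on day 21 alone, at least 1.42-fold higher from 9 spots. Top2a, which untangles chromosomes, was higher by 0.77, and Tpx2, the activator of Aurka, by 0.59. The differences of these dim genes were smaller with normexp: Ube2c was at 0.38, Top2a at 0.32, Ccnb1 at 0.30 and Tpx2 at 0.29. That setting adds an offset of 50 units, which by itself narrows the log2 differences of dim genes. It therefore cannot show how far they depend on the background correction. Mki67, the proliferation marker Ki-67, had 183 in the control, 220 on day 21 and 125, 118, 188 and 133 later (0.26), and its other 2 probes gave 0.56 and 0.74. Nusap1, a spindle microtubule gene, had 58.5 in the control, 69.5 on day 21 and 49.4, 33.6, 37.3 and 34.8 later. Prc1, which bundles microtubules of the central spindle, had 88.1, then 101 on day 21, and 74.7, 58.6, 77.6 and 68.9. The exception was Kif20a, a cytokinesis motor, at -0.07.

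Other genes of the same processes were set beside the members. Of 34 further mitosis genes, 25 could be compared at day 21, 18 of them were above the control, and their median was 0.21. At least 2-fold higher were Ect2 (1.45), which starts furrowing, Ndc80 (1.22) of the kinetochore and Ttk (1.20), the checkpoint kinase Mps1. Of 20 further replication genes, 14 could be compared, 6 were above the control, their median was -0.09, and none passed 2-fold in either direction. Among RefSeq promoters, 26 of 32 belonging to the further mitosis genes held the CHR letters. Among 17 inhibitors of the cycle and p53 targets, 1 was at least 2-fold higher, Gadd45a (1.07), and the median was 0.17. The inhibitor gene Cdkn1a stood at 16682 in the control and 19138 on day 21 (0.20). None of the 5 compared genes of E2F factors and their partners differed by more than 0.18.

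Markers of several cell types differed on the same day 21 array, and their part in the values of the cell cycle genes was not tested. All 10 microglial markers were above the control and 7 were at least 2-fold higher, with a summed normalised intensity of 20306 in the control, 55130 on day 21 and 17917 to 21606 on the other arrays. Reactive astrocyte markers summed to 4793 in the control, 18642 on day 21 and 4807 to 5646 elsewhere, with 5 of 6 at least 2-fold higher. All 6 meningeal markers were above the control, with sums of 3773 and 10979, and 3270 to 3696 later. Choroid plexus markers summed to 69245 on day 21 but also to 35416 on day 35 and 58936 on day 70, against 4017 to 4173 on the other 3 arrays. Ttr, which makes up most of these sums, was saturated on 1 array, so the sum there is a lower bound. Single markers of the usual dividing cells of this tissue mostly differed less. Neural stem cell markers were split, with 4 of 7 above the control and 3 below it, and a median of 0.13. They ran from -0.90 to 1.05, the highest being Fabp7, the 1 marker of the 7 at least 2-fold higher. Their sum was 23751 in the control, 33738 on day 21 and 22655 to 24328 later. All 6 markers of oligodendrocyte precursors were above the control, by 0.03 to 0.35. These summed to 14157 in the control, 16183 on day 21 and 14229 to 14957 later. Of 6 neuroblast markers 5 were below the control, with a median of -0.25, and sums of 4750 in the control and 4762 on day 21. All 8 markers of hippocampal neurons were well above background on every array. On day 21, 6 of the 8 were below the control, with a median of -0.22, and their sum was 14895 in the control, 12374 on day 21 and 13774 to 15345 later. Endothelial markers summed to 4321 in the control and 3712 to 4309 on the other arrays. Of the lymphocyte markers Cd3g, Cd8a and Ms4a1 were not well above background on any array. In pooled tissue RNA, fewer cells of a type and less RNA per cell cannot be told apart.

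By day 35 no member stood 2-fold from the control. Of 35 members compared none was at least 2-fold higher, beside 0.448% of all genes, and none lower, beside 1.12%. Only 7 were above the control (20.0%), where 42.1% of all genes were, and the median of -0.13 lay under that of all genes, -0.04. Mcm6 (0.07, a bound) passed the background limit on the day 35 array alone and could only count as above. In the dimmest group of genes 33.0% were above the control, and the medians were -0.18 for all genes and -0.25 for the members. In the middle group 38.7% were, with medians of -0.06 and -0.14. In G2 and mitosis 17 of 18 were below the control, with a median of -0.26 that shrank to as little as -0.11 under other processing. Aurka (0.10) was the exception. The lowest members were Cdc20 (-0.57), Mki67 (-0.56) and Tpx2 (-0.53). Mcm5 (0.25) and Mcm7 (0.22) were the highest. Under the 7 other ways of processing, the members' median at day 35 ran from -0.14 to -0.04.

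The step between days 21 and 35 can be read without the control and within 1 slide. Of 36 members compared, 30 were higher on day 21 (83.3%), beside 46.2% of 13667 genes, and the median difference was 0.46, beside -0.03. Cdk1 was 2.56-fold, Rrm2 2.40-fold, Top2a 2.35-fold, Mcm3 2.32-fold, Tpx2 2.19-fold, Ube2c 2.17-fold and Cdca3 2.06-fold higher on day 21 than on day 35, and Cenpf at least 2.36-fold. These are 8 of 36 members, beside 4.5% of all genes, and no member was at least 2-fold lower, beside 1.03%. In G2 and mitosis 19 of 20 were higher on day 21, Cdc20 included (0.29) and Cdc25b excepted (-0.15). Here too Cenpf and Kif11 could be compared through the day 21 array alone. In the G1 group the median was -0.06.

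**Figure D3:**
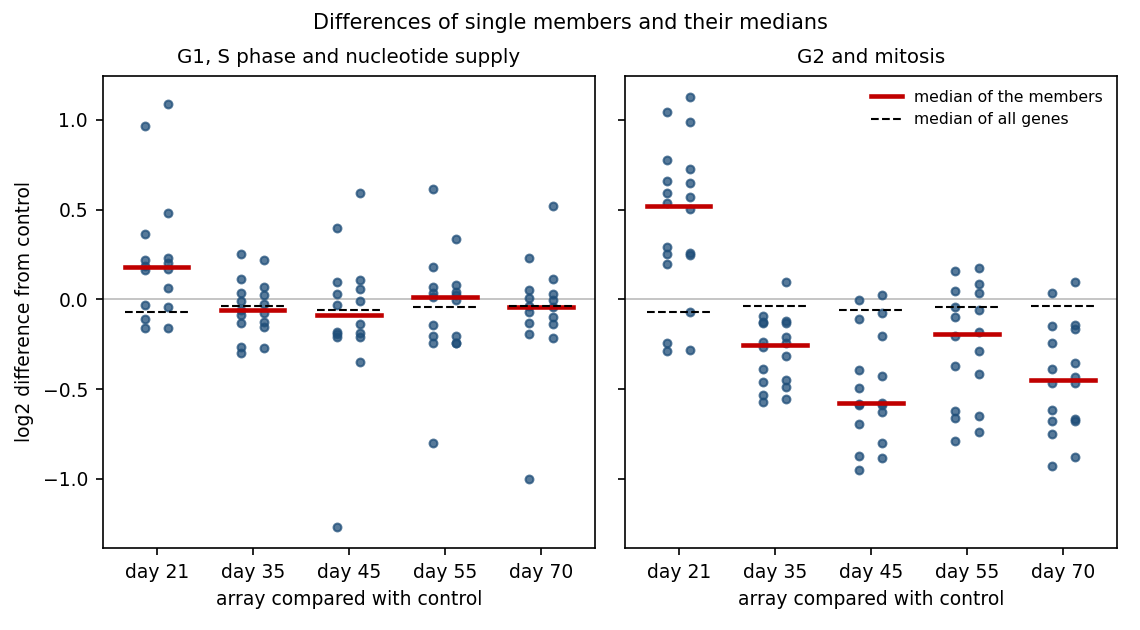
Log2 differences from the control (y axis) of the single members (points) at each time (x axis), for G1, S phase and nucleotide supply at left and for G2 and mitosis at right. Red lines are the members' medians and dashed lines those of all genes. The right panel has a median of 0.52 on day 21 and -0.26, -0.58, -0.19 and -0.45 on the later days, while the left panel stays between -0.09 and 0.18.

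On days 45, 55 and 70 most mitotic members were below the control, and so were most dim genes. On day 45, of 34 members compared, none was at least 2-fold higher, beside 0.592% of all genes, and 1 was lower, beside 5.73%. On day 55 none of 35 passed 2-fold in either direction, beside 0.649% of all genes higher and 4.9% lower. On day 70 none of 34 was higher, beside 0.652%, and 1 was lower, beside 6.7%. The members' shares are thus at or under those of all genes. At the probes that stand for the genes, the gene called on both days was Mcm5, a helicase subunit with a dim single spot at chr19:13998935-13998994 of build rn4. Mcm5 had 44.1 units in the control, 56.6 on day 21, 52.5 on day 35, 18.2 on day 45 (not well above background), 25.3 on day 55 and 22.0 on day 70. It was at least 2.40-fold lower on day 45 and just past 2-fold lower on day 70, and its levels were high on the arrays of slide 1 and low on those of slide 2. Under the other ways of processing it ran from -1.28 to -0.15 on day 45 and reached -0.38 on day 70, and neither call held with normexp, quantile normalization or the deposited values. These 3 days lie on another slide than the control, so slide and time cannot be told apart, and all 5 comparisons share the 1 control array.

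The members of G2 and mitosis had medians of -0.58, -0.19 and -0.45 on days 45, 55 and 70, and those of G1, S phase and nucleotide supply of -0.09, 0.01 and -0.04. For all genes the medians were -0.06, -0.04 and -0.04. Under the other ways of processing the G2 and mitosis medians shrank to as little as -0.10 on day 45 and -0.07 on day 70, and reached 0.02 on day 55. Cdc20 was the mitotic gene lowest on day 70 among those well above background on all arrays, at -0.69, -0.66 and -0.88 on the 3 days, and under the other ways of processing it stayed between -0.77 and -0.88 on day 70. Cdk1 was at -0.59, -0.62 and -0.68, and under the other ways of processing it shrank to as little as -0.17, -0.35 and -0.29. Cdca3 (-0.87, -0.74 and -0.68) and Nusap1 (-0.80, -0.65 and -0.75) were also below the control on each day, but shrank under other processing, Cdca3 to -0.31, -0.30 and -0.18 and Nusap1 to -0.07, -0.20 and -0.16. The second probe of Cdc25b stood lower than its first, at -1.39, -1.24 and -1.03 on the 3 days, and a second probe of Mki67 at -1.02, -0.59 and -1.09. Aurka (0.00, 0.05 and 0.09) and Bub1 (0.03, -0.04 and 0.03) were level with the control. Over all members the median of -0.21 on day 45 turned to 0.02 with quantile normalization, and those of days 55 and 70, -0.10 and -0.16, turned to 0.03 and 0.00 with it and to 0.02 on both days with the values the authors deposited. The direction of the median of the whole set on these 3 days thus differed between ways of processing.

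Dimness went with the late differences. In the dimmest group of genes the medians of all genes were -0.49, -0.38 and -0.56 on days 45, 55 and 70, and those of the members there -0.69, -0.37 and -0.64. In the middle group they were -0.11, -0.07 and -0.09 for all genes and -0.19, -0.07 and -0.15 for the members. On day 21 the same split gave 0.55 for the members and -0.13 for all genes in the dimmest group, and 0.26 against -0.07 in the middle group. The dimmest group held 12 compared members on day 21, and 10, 11 and 10 on days 45, 55 and 70. Among the 12 were Cenpf and Kif11, which passed the background limit on the day 21 array alone. The 6 brightest members (Cdk4, Ccnd2, Ccne1, Pcna, Mcm4 and Mcm7) had -0.07, near the -0.06 of bright genes. In the dimmest and the middle group, members and other genes thus lay further apart on day 21 than on days 45, 55 and 70.

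**Figure D4:**
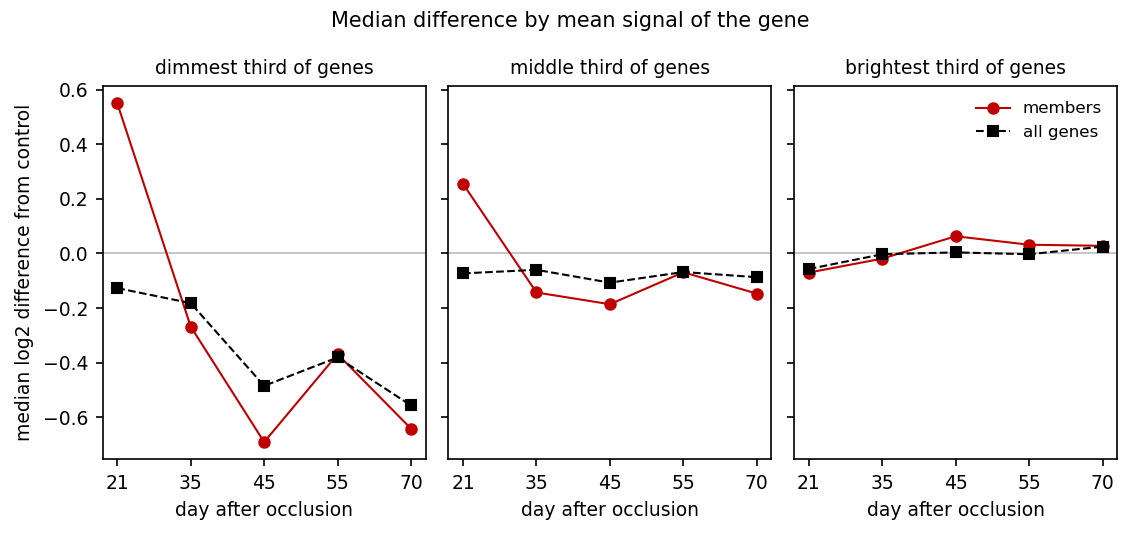
Median log2 difference from the control (y axis) at each day (x axis) for the members (red circles) and for all genes (black squares), in 3 equal groups of genes by mean signal. Members and other genes lie apart on day 21 in the dimmest (0.55 and -0.13) and middle group (0.26 and -0.07), and close together in the brightest group.

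Within slide 2 the median of the members was 0.08 from day 45 to day 55, beside 0.04 for all genes, and 0.04 from day 45 to day 70, beside 0.02. In G2 and mitosis 15 of 17 were higher on day 55 than on day 45, with a median of 0.16, and all 5 compared spindle genes were, with a median of 0.41. Of all genes 58.9% were higher on day 55 than on day 45. In the dimmest group of genes 78.2% were, with a median of 0.24. On day 70, 11 of 17 G2 and mitosis members were higher than on day 45, beside 56.5% of all genes, with a median of 0.04. Aurkb was the 1 member of 34 at least 2-fold apart, higher on day 55 than on day 45 by at least 2.18-fold, beside 0.885% of all genes, while none was lower, beside 0.741%. From day 45 to day 70 none of 33 passed 2-fold, beside 0.979% higher and 0.971% lower. Mki67 was higher on day 55 than on day 45 by 0.67 and Rrm1 lower on day 70 than on day 45 by 0.73.

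The order of the 6 arrays shows the same without a chosen reference. Among the 29 members well above background on all arrays, day 21 was the highest array for 18 (62.1%), beside 24.1% of 12270 genes. In G2 and mitosis this held for 11 of 14, the others being Cdc25b, Cdc20 and Kif20a, which were highest in the control as 20.2% of genes were, and in G1, S phase and nucleotide supply for 7 of 15. Of the further mitosis genes it held for 14 of 22 and of the further replication genes for 3 of 12. Above the control on day 21 and below it on all 4 later days were 9 of the 29, beside 7.33% of genes: Pcna, Mcm2, Tk1, Cdk1, Ccnb1, Birc5, Cdca3, Nusap1 and Prc1. The other probe of Prc1 did not keep this order, at 0.06 on day 35 and 0.56 on day 55. Day 21 was the lowest array for Cdk4, Ccne1 and Mcm4, beside 31.6% of genes. Mcm7 alone was lowest in the control, beside 9.52% of genes. It had 713 units there and 835, 830, 940, 900 and 1023 on the days that followed, up to 0.52 above the control on day 70, and it was the only Mcm gene above the control on all 5 days.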

How the data were processed

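RNA of 6 pools was read on 1-colour Agilent arrays (design 028282, build rn4), 3 on each of 2 slides, control and days 21 and 35 on the first. Per the file headers, the deposited scanner files were made with Feature Extraction 10.7.3.1 and hold processed signal intensity in the green channel, although the labels name Cy5. The authors' deposited value table of 41507 rows also holds intensity, ranks spots as the scanner's background-subtracted median does (rank correlation 1.0) and has array medians of 298.0 to 298.4; how it was scaled is not stated.

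The processed signal was divided by each array's 75th percentile (1239.6 to 1500.4), with 346 to 470 outlier spots left out per array, and log2 was taken. Between 74.5% and 80.2% of spots were well above background. Spots of a probe were averaged, and the probe with the highest mean stood for a gene with several. Of 30367 probes 9687 had no gene name; Mki67 was named by its description and Cdk1 is listed as Cdc2. The number of arrays limits the precision; spots printed 10 times gave a technical SD of 0.08 for a log2 difference, without the spread between animals. A call is a difference of at least 2-fold. No test was possible.

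Values on every array are given for members at least 2-fold from the control on some day and for the 3 brightest of each role; other members, such as Ube2c, were singled out after their values were seen. The members and lists were chosen with earlier results of these data known. Alternatives were quantile and median scaling, normexp with an offset of 50 units (limma 3.58.1, R 4.3.3), the deposited values, the mean of all probes, 2 filters on dim probes and a 1.5-fold threshold. The procedure was tested on simulated data (Python 3.11.15).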

Additional observations from a re-analysis of the deposited data

How the results depend on the processing

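At day 21 the count of 3 members at least 2-fold higher went to 0 with normexp and 0 with the deposited values, and to 10 at 1.5-fold; the members' median stayed above 0 under all 7 alternatives. At day 35 the median went to -0.039 with the deposited values. The count at least 2-fold lower on day 45 was 0 with quantile normalization, normexp, the deposited values and genes well above background on all 6 arrays, 3 without a filter and 9 at 1.5-fold. On day 70 it was 0 under the same 4 and under median scaling, 3 without a filter and 8 at 1.5-fold. On day 55 it was 2 without a filter and 6 at 1.5-fold. The count higher was 1 on day 45 with quantile normalization and 1 at 1.5-fold on days 45 and 55. The members' medians on days 45, 55 and 70 were 0.016, 0.034 and 0.004 with quantile normalization, -0.082, -0.009 and -0.045 with median scaling and -0.037, 0.018 and 0.023 with the deposited values, and -0.193 on day 55 without a filter. The median of G2 and mitosis members on day 55 turned to 0.021 with quantile normalization, and Ccnb1 on day 70 to 0.038 with it and 0.03 with the deposited values. Median scaling moved the median of all genes on day 70 from -0.037 to 0.075. The cause of these changes was not tested. No paired analysis was possible because each group has 1 array, and leaving one out leaves no comparison. Slide was not fitted as a block for the same reason, and differences within a slide are given in its place. Signal over background limits the dim members most: 11 of the 40 were not well above background on all arrays.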

Other observations

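Outside the 40 members, most of the further mitosis genes were below the control on the later days: 19 of 26 on day 35, 17 of 26 on day 45, 20 of 25 on day 55 and 21 of 25 on day 70, with medians of -0.09, -0.22, -0.28 and -0.27. Above the control on these days were 26.9%, 34.6%, 20.0% and 16.0% of them, beside 42.1%, 37.6%, 41.6% and 42.1% of all genes. The share on day 45 was thus near that of all genes. On day 45 the passenger complex gene Cdca8 (1.56, a bound) and the kinetochore gene Nuf2 (1.19) were at least 2-fold higher, while Racgap1 (-1.04), which acts in cytokinesis, and Ccnf (-1.01), an F-box cyclin, were lower. The motor gene Kif18a was lower by bounds on days 35 (-1.20), 55 (-1.28) and 70 (-1.25). By measured values the motor gene Kif15 was lower on day 35 (-1.01) and Racgap1 also on day 70 (-1.15). Gmnn, which encodes the licensing inhibitor geminin, was 1.77 above the control on day 70. The repressor gene E2f7 was lower on days 45 (-1.42) and 70 (-1.07), and the inhibitor gene Cdkn2c on day 55 (-1.04). Of the further mitosis genes 2 of 26, 2 of 26, 1 of 25 and 2 of 25 were at least 2-fold lower on days 35, 45, 55 and 70. Of all genes 1.12%, 5.73%, 4.9% and 6.7% were. At least 2-fold higher were 0.592% of all genes on day 45 and 0.652% on day 70. On days 45, 55 and 70 slide and time cannot be told apart.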
